A study of Mus musculus with 11 samples.

Results

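The lysosomal genes described here are 47 genes for hydrolases, membrane proteins, soluble helper proteins and transcription factors of the lysosome, taken by gene symbol from a list. All 47 were present among the 15453 genes in the tables, and all 47 averaged 50 or more normalized tags in each genotype, so no member was lost to the filter on low values. They were measured by SAGE (serial analysis of gene expression), with 1 library per mouse, in epididymal white adipose tissue (eWAT). The donors were male mice of the strain labelled C57BL/6 (C57BL/6J in the methods of the study), 6 of them wildtype (WT) and 5 with paternal inheritance of a Mest knockout allele (pKO). All mice were 16 weeks old, and their diet had been high in fat since 8 weeks of age. The pKO mice inherited from their fathers a Mest allele without exon 3, and since Mest, an imprinted gene, is read almost only from the paternal copy, this inactivates it in the whole body and not in fat alone. The deletion was made earlier by crossing to EIIa-cre mice. The WT mice were male progeny of the same kind of cross, between WT females and carrier males, with 2 intact Mest copies. The comparison asks which genes of the fat pad differ in level between WT mice and mice that lost Mest, all on this diet. By the study's own measurement, the sequenced WT mice had significantly more fat mass per lean mass than the sequenced pKO mice. Genotype and adiposity therefore cannot be told apart in any difference below.

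Lysosomes are acidic organelles in which proteases, glycosidases, sulfatases and lipid hydrolases break down material delivered by endocytosis, phagocytosis and autophagy. A membrane rich in Lamp1 and Lamp2 encloses them, Npc1 and Npc2 pass freed cholesterol out, and Tfeb, Tfe3 and Mitf switch on many lysosomal genes by binding a short promoter element. In fat of obese mice, macrophages that take up lipid from adipocytes are known for a high content of lysosomes, while adipocytes use lysosomal acid lipase for a part of their lipid turnover.

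SAGE reads each transcript once, through the bases that follow its last CATG, the site cut by NlaIII, so levels of different genes can be set side by side without a correction for length, apart from differences in how well each tag is ligated, amplified and mapped. In the GENCODE M21 annotation of GRCm38, that tag fell in the last exon for 46 of the 47 members and in the 3′ UTR for 41. The other 6 lay in coding sequence or across the stop codon. For 45 members it could be taken at its full 27 bases, and none of these 45 tags had an exact match in the annotated transcripts of another gene. Near matches, and matches elsewhere in the genome, were not searched for, so these tags are not shown to map uniquely. The tags below are those of the members with the clearest genotype difference or the highest level, and of Sgsh for its repeat, with CATG in capitals.
Gla: CATGgtggctcacaataatctgcaatg
Npc2: CATGggaggattagtttgaaaggtcat
Lipa: CATGaagctaaagctggttgtggtggc
Asah1: CATGggatagtcttcaaaatcaaaata
Ctsb: CATGacaatgtagccaactaaccacgc
Ctsd: CATGcctcagcctggggtagaggtagg
Sgsh: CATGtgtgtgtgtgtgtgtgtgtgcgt

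The tag of Gla lay at chrX:134588417-134588443 on the reverse strand, in the 3′ UTR of exon 7 of 7, and that of Npc2 at chr12:84754769-84754795 on the reverse strand, in exon 4 of 4. The tags of Lipa (chr19:34492649-34492675) and Asah1 (chr8:41340219-41340245) were also on the reverse strand. Ctsb was read at chr14:63145870-63145896 on the forward strand and Ctsd at chr7:142376014-142376040 on the reverse strand. The tag of Sgsh, at chr11:119343569-119343595 on the reverse strand, is almost entirely a TG repeat. For 13 members the annotated coding transcripts gave more than 1 tag. Mitf was one of them, with 3 different tags over 6 coding transcripts, and how the tags of such genes were assigned is not given in the sources used here.

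The libraries held 9659740 to 14825727 tags. Mest, the targeted gene, stood at 25107 ± 2672 normalized tags in the 6 WT mice and at 1663 ± 566 in the 5 pKO mice (mean ± SD), and every library matched its label. Of the 18 macrophage genes examined, 5 of the 17 that reached 50 tags (29.4%) were lower in pKO mice and none was higher. These calls are at an unadjusted p of at most 0.05 in limma, by which 5.77% of all genes tested were lower and 4.85% higher. The summed level of the 18 ran from 11690 to 20123 normalized tags among WT mice and from 10584 to 15700 among pKO mice. The sum of 11 adipocyte genes was 787508 to 1201830 among WT and 838731 to 1212680 among pKO mice, so the labelled tissue carried its defining markers in both genotypes. The only epididymis gene of 5 in the tables, Adam7, reached at most 43.8 normalized tags in any mouse.

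Lysosomal genes with a genotype difference were all lower in pKO mice. At an unadjusted p of at most 0.05 in limma, 10 of the 47 members (21.3%) were lower and 0 were higher. Over the 9906 genes that averaged 50 or more in one genotype, 5.77% were lower and 4.85% were higher by the same rule. The members and the other gene lists were chosen with earlier results of these data known. Shares called among them are therefore not independent evidence. No member passed an adjusted p of 0.1 over all genes in limma, a threshold that 5 genes (0.0505%) passed. The count of members past it was 0 in edgeR and 2 in DESeq2, namely Gla and Npc2. The fold changes below are differences, pKO minus WT, of log2(value + 1), given where needed with their standard error (SE), and this scale slightly understates those of genes with few tags. They were negative for 34 members and positive for 13, with a median of -0.18 against 0.01 over all genes tested, and 72.3% of members against 48.7% of genes were negative. Because a fat pad is a mixture of cell types, fewer cells of a type and less RNA per cell cannot be told apart in any of these values.

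**Figure D1:**
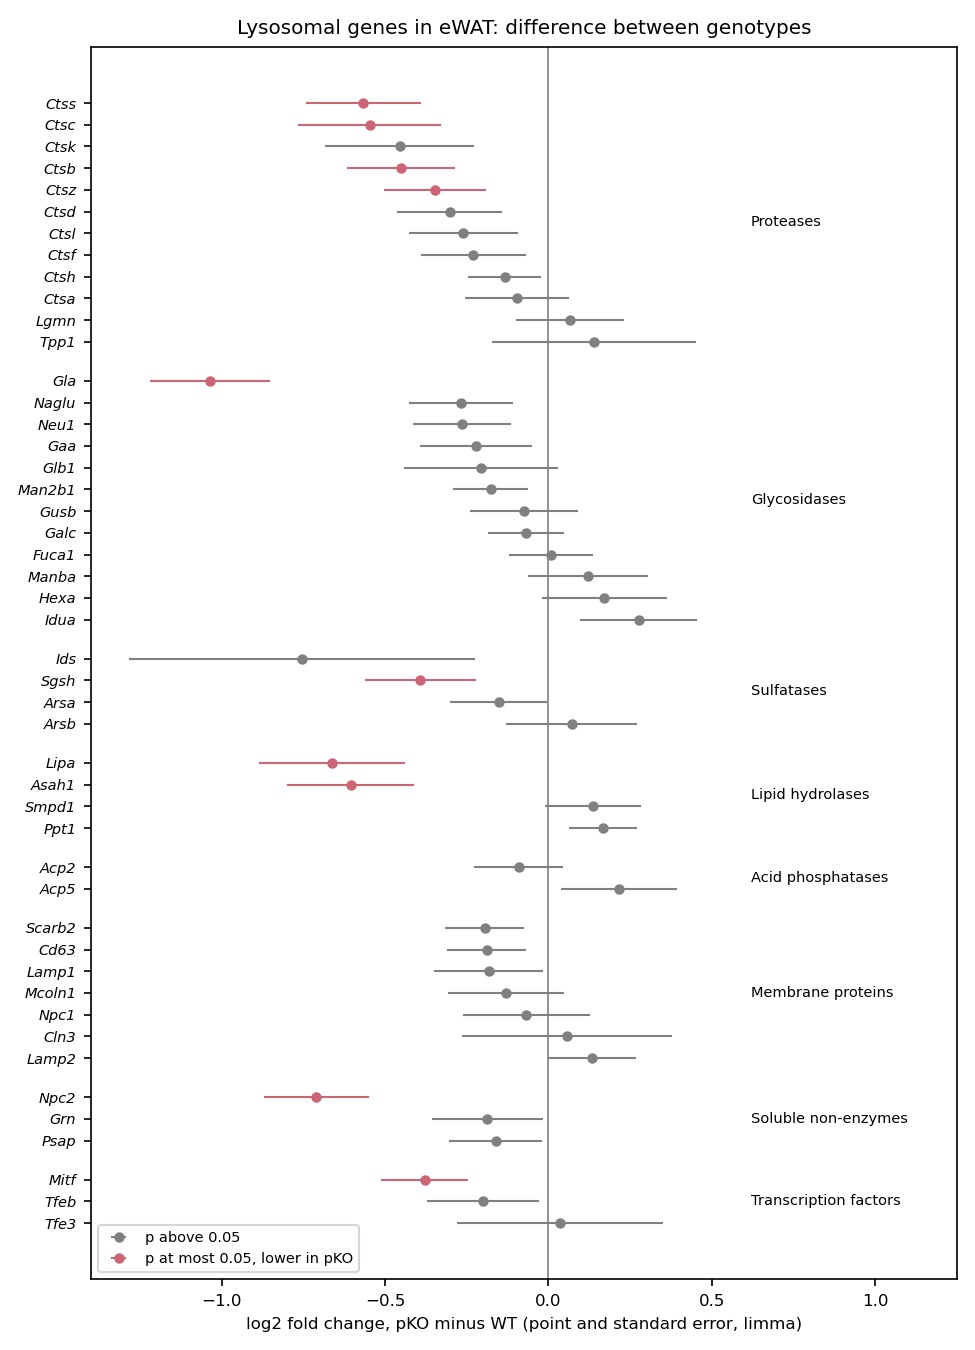
Log2 fold change of each of the 47 lysosomal genes, pKO minus WT, on the x axis (point, with its standard error from limma as the bar), grouped by role on the y axis. The 10 genes in red had an unadjusted p of at most 0.05 and all lie left of 0, from -0.35 for Ctsz to -1.04 for Gla.

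The clearest difference was in Gla, the glycosidase that removes terminal alpha-galactose from glycolipids and is lost in Fabry disease. It had 151 normalized tags in the lowest WT mouse, 197 at the median and 228 in the highest, against 98.7, 127, 87.5, 92.7 and 63.4 in pKO replicates 1 to 5. Every pKO value lay under every WT value, and the pKO mean was 49.1% of the WT mean. The log2 fold change was -1.04 ± 0.18 (SE, limma adjusted p = 0.118). Gla and Npc2 were the 2 members whose genotypes did not overlap with pKO lower, and no member had every pKO value over every WT value. Over all genes tested, 0.717% did not overlap with pKO lower and 0.717% with pKO higher. Gla is among the genes that the study itself selected on these mice, so its direction is not independent evidence, and Npc2, Lipa, Asah1, Ctss, Ctsb and Ctsc are in the longer list it drew from the same values. The other 11 glycosidases did not pass the test. Neu1, which removes sialic acid, was at -0.27, Naglu, which acts on heparan sulfate, at -0.27 and Gaa, which degrades glycogen, at -0.22. Idua, which cleaves iduronic acid from heparan and dermatan sulfate, was at 0.28 and Hexa, a subunit of beta-hexosaminidase, at 0.17. Glb1, Man2b1, Gusb, Galc, Fuca1 and Manba lay between -0.21 and 0.12.

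Npc2, the soluble protein that hands cholesterol to Npc1 in the lysosomal membrane, had 7632 normalized tags in the lowest WT mouse, 8578 at the median and 10304 in the highest. Its values in pKO replicates 1 to 5 were 3964, 7578, 6048, 4660 and 5123. The genotypes did not overlap, but pKO replicate 2 came close to the lowest WT mouse. The means were 8785 ± 989 for WT (SD, n = 6) and 5475 ± 1398 for pKO (SD, n = 5). For Npc2 the log2 fold change was -0.71 ± 0.16 (SE, limma adjusted p = 0.257). Npc1, its partner, had 427 ± 76.8 and 417 ± 131, and the log2 fold change of Npc1 was -0.07, or 0.06 without pKO replicate 4.

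Lipa, the acid lipase that frees fatty acids and cholesterol from triglycerides and cholesteryl esters, had 1500 normalized tags in the lowest WT mouse, 1984 at the median and 2155 in the highest. In pKO replicates 1 to 5 it had 1322, 2097, 774, 857 and 1310. Of the pKO mice, 4 lay under the whole WT range and replicate 2 near its top. For Lipa the log2 fold change was -0.66 ± 0.22 (SE, adjusted p = 0.393). Asah1, acid ceramidase, was again highest in replicate 2 among the pKO mice, with 787, 1076 and 1156 as the lowest, median and highest WT values and 572, 1136, 498, 577 and 769 in pKO replicates 1 to 5. The lowest WT value stood apart from the other 5 WT mice. Asah1 had a log2 fold change of -0.61 ± 0.19 (SE, limma adjusted p = 0.37). Without pKO replicate 2, the highest pKO mouse in Lipa, Asah1, Gla and Npc2, the log2 fold changes were -0.87 for Lipa and -0.79 for Asah1. The limma adjusted p-values were then 0.0848 and 0.0666, and those of Gla and Npc2 were 0.0228 and 0.0436. Leaving out the highest pKO mouse of a gene lowers its pKO mean, so the larger differences here follow from that choice. In that fit 65 genes were lower and 26 higher past the adjusted threshold, against 4 and 1 with all mice. Lipa and Asah1 passed it in none of the other alternatives. The other lipid hydrolases did not pass the test. Smpd1, acid sphingomyelinase, was at 0.14, and Ppt1, which removes palmitate from proteins, was at 0.17, with 438 ± 29.3 for WT (SD, n = 6) and 492 ± 21.4 for pKO (SD, n = 5).

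Of the 12 proteases, 4 were lower in pKO mice, all of them cysteine cathepsins, and the median log2 fold change of the group was -0.28. Ctss, a cathepsin of antigen-presenting cells that trims the invariant chain of MHC class II, had 2998 normalized tags in the lowest WT mouse, 3935 at the median and 6431 in the highest. In pKO replicates 1 to 5 it had 2405, 3133, 2621, 3241 and 2884, so that replicates 2 and 4 lay above the lowest WT mouse and under the other 5. Ctss had a log2 fold change of -0.57 ± 0.18 (SE, limma adjusted p = 0.37).

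Ctsb, the most abundant member to pass, had 28632, 31738 and 32151 as its lowest, median and highest WT values and 16417, 25022, 30480, 17943 and 26927 in pKO replicates 1 to 5. The WT mice lay close together, with a coefficient of variation of 4.57%, while the pKO mice spread over 25.7%, and pKO replicate 3 lay inside the WT range. For Ctsb the log2 fold change was -0.45 ± 0.16 (SE, adjusted p = 0.43). Ctsc, which activates serine proteases of immune cells, had 759, 919 and 1072 as its lowest, median and highest WT values and 387, 1030, 489, 764 and 599 in pKO replicates 1 to 5. Replicates 2 and 4 lay in the WT range. Ctsc had a log2 fold change of -0.55 ± 0.22 (SE, limma adjusted p = 0.467), and p was above 0.05 when WT replicate 1 or 6 or pKO replicate 1 or 3 was left out, where the log2 fold change of Ctsc was -0.51, -0.50, -0.38 and -0.46.

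Ctsz, a carboxypeptidase, had 6138, 6775 and 7288 as its lowest, median and highest WT values and 3890, 4261, 5488, 6391 and 7037 in pKO replicates 1 to 5. The upper pair of pKO mice lay in the WT range. Its log2 fold change was -0.35 ± 0.16 (SE, limma adjusted p = 0.516). It was the member nearest to the threshold from inside, with p above 0.05, among other settings, in edgeR, in DESeq2, in limma without a mean-variance trend, and without WT replicate 1, 2, 3 or 6 or pKO replicate 1, 2 or 3, where the log2 fold change of Ctsz ran from -0.36 to -0.24. Ctsk, the collagen-degrading cathepsin, and Ctsd, the main aspartic protease of the lysosome, were next outside it, at log2 fold changes of -0.46 and -0.30 (adjusted p = 0.546 and 0.572, limma).

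Ctsd was also the most abundant of all 47 members. It had 62884, 68893 and 76426 as its lowest, median and highest WT values and 54740, 76229, 46723, 65058 and 43541 in pKO replicates 1 to 5. Replicates 2 and 4 lay in the WT range and the other 3 pKO mice under it, and the standard error of the log2 fold change was 0.16. Without pKO replicate 2 that log2 fold change was -0.41 (adjusted p = 0.274, limma). Ctsl, Ctsf and Ctsh had log2 fold changes of -0.26, -0.23 and -0.13, and Ctsa, a serine carboxypeptidase, one of -0.09. Lgmn, which cuts after asparagine, was at 0.07. Tpp1, a tripeptidyl peptidase, had 1149, 1439 and 2026 as its lowest, median and highest WT values and 710, 1021, 2424, 2562 and 2413 in pKO replicates 1 to 5. No pKO mouse lay in the WT range, with 2 mice under it and 3 over it, and the log2 fold change was 0.14 (SE 0.31).

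**Figure D2:**
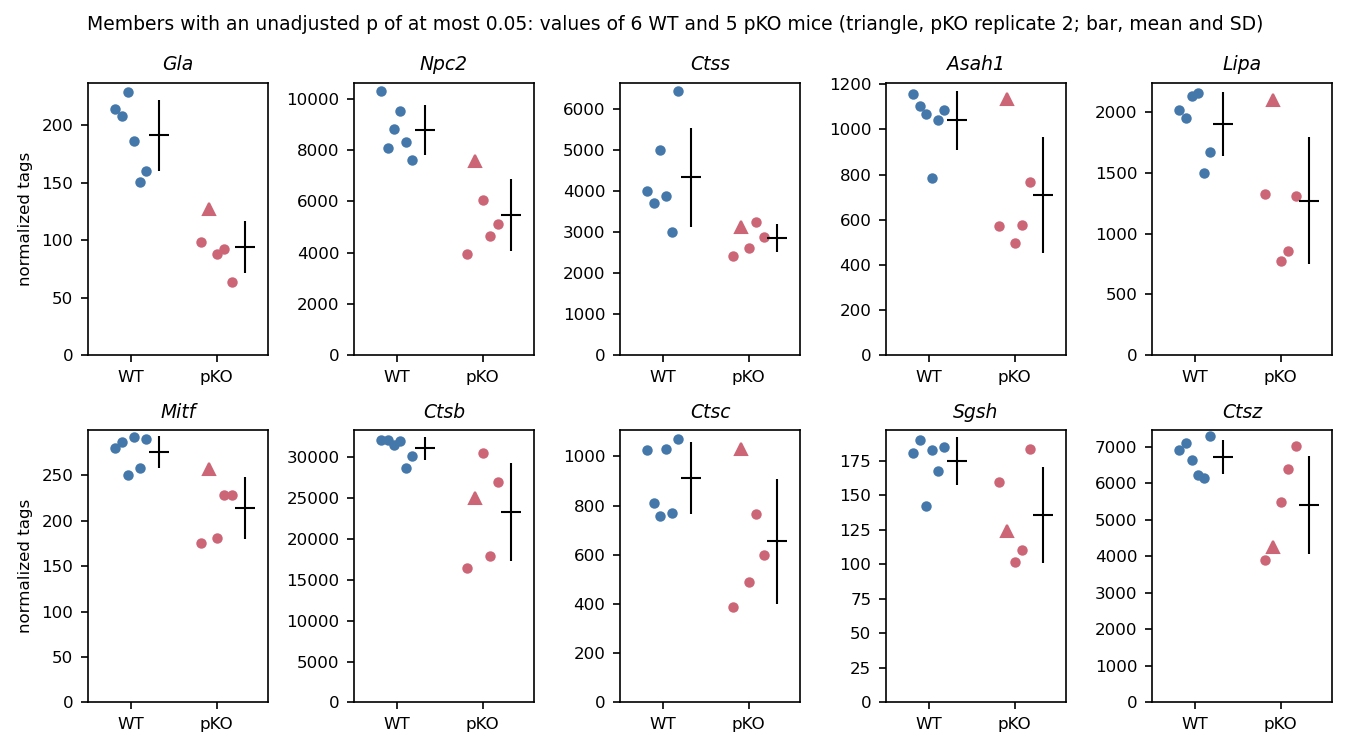
Normalized tags (y axis, from 0) of the 10 members with an unadjusted p of at most 0.05 in each of 6 WT (blue) and 5 pKO mice (red), with pKO replicate 2 as a triangle and the mean and SD as the cross and bar. The genotypes are apart for Gla and Npc2, and pKO replicate 2 is the highest pKO mouse for 6 of the 10 genes.

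Among the 4 sulfatases, Sgsh, which removes sulfate from heparan sulfate, was lower in pKO mice. It had 142, 182 and 190 as its lowest, median and highest WT values and 160, 124, 102, 110 and 183 in pKO replicates 1 to 5, with pKO replicates 1 and 5 in the WT range. The annotated tag of Sgsh is almost entirely a TG repeat and is not shown to map uniquely. Sgsh had a log2 fold change of -0.39 ± 0.17 (SE, limma adjusted p = 0.496). The p-value was above 0.05 without WT replicate 1, 2, 4 or 6 or pKO replicate 2, 3 or 4, where the log2 fold change of Sgsh ran from -0.38 to -0.30. Ids, which acts on the same chain, had the widest spread of all members in pKO mice, with 3136, 2036, 1062, 192 and 1971 in replicates 1 to 5 against 1662, 2104 and 2255 as the lowest, median and highest WT values. The log2 fold change of Ids was -0.75 with a standard error of 0.53, and -0.29 in edgeR. Leaving out single mice moved it from -1.10 without pKO replicate 1 to -0.09 without pKO replicate 4. Arsa and Arsb, which act on sulfatide and on dermatan sulfate, were at -0.15 and 0.07.

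None of the 7 membrane proteins passed the test. Lamp1, a major glycoprotein of the lysosomal membrane, had 6443, 7801 and 9418 as its lowest, median and highest WT values and 5835, 4647, 8601, 7353 and 8089 in pKO replicates 1 to 5. Lamp1 had a log2 fold change of -0.18 ± 0.17 (SE, limma adjusted p = 0.766). For Lamp2, its relative with a part in autophagy, the lowest, median and highest WT values were 3542, 4790 and 4918, and pKO replicates 1 to 5 had 5838, 5110, 5346, 3867 and 5111. For Lamp2 the log2 fold change was 0.13 ± 0.13 (SE, limma adjusted p = 0.786), and 4 of 5 pKO mice lay over the highest WT mouse, while WT replicate 4 stood apart below the other WT mice. Scarb2, the receptor that carries glucocerebrosidase to the lysosome, was at -0.20, the tetraspanin Cd63 at -0.19, and the calcium channel Mcoln1 at -0.13. Cln3, the protein lost in juvenile neuronal ceroid lipofuscinosis, was at 0.06 with a standard error of 0.32, and its last CATG is so close to the annotated transcript end that no full tag could be taken.

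Psap, the precursor of the saposins that help glycosidases reach their lipids, was the soluble non-enzyme with the highest level. It had 26399, 30988 and 33897 as its lowest, median and highest WT values and 27014, 37024, 24388, 27291 and 22969 in pKO replicates 1 to 5. The highest of all 11 mice was a pKO mouse, replicate 2, and the lowest another, and the log2 fold change was -0.16 ± 0.14 (SE, limma adjusted p = 0.754). Grn, progranulin, was at -0.19. The acid phosphatases gave log2 fold changes of 0.22 for Acp5, the tartrate-resistant form known from osteoclasts and macrophages, and -0.09 for Acp2.

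Mitf was the one transcription factor to pass the test. It had 250, 283 and 292 as its lowest, median and highest WT values and 176, 257, 181, 229 and 228 in pKO replicates 1 to 5, with pKO replicate 2 in the WT range. Mitf had a log2 fold change of -0.38 ± 0.13 (SE, limma adjusted p = 0.412). Tfeb had 99.1, 124 and 151 as its lowest, median and highest WT values and 121, 81.4, 87.5, 123 and 134 in pKO replicates 1 to 5. Tfeb had a log2 fold change of -0.20 (SE 0.17). Tfe3 had 45.0, 139 and 176 against 79.8, 147, 121, 160 and 119. The log2 fold change of Tfe3, 0.03 (SE 0.32), was -0.06 in edgeR, -0.05 in DESeq2 and -0.24 without WT replicate 2, the lowest mouse.

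The element these factors bind was looked for in promoters of RefSeq on GRCm38.p6, each from 250 bases before to 50 after the start of transcription. Its 8 inner bases, TCACGTGA, equal their own reverse complement, so a search of either strand covers both, and they contain the shorter E-box CACGTG. Of the 43 members with a promoter entry, 5 held TCACGTGA (11.6%). This compares with 2.31% of the 7263 genes tested that had an entry and 1.12% of all genes with an entry. CACGTG was in 14 of the 43 (32.6%), against 12.2% and 8.09%. As the element is known from lysosomal genes, a higher share among listed lysosomal genes is no new result. The windows below are shown for Gla, the member with the largest genotype difference, and for Ctsd and Mcoln1. Gla held 2 matches, and so did Ctsa, which is not shown. TCACGTGA is in capitals, with 10 bases on each side.
Gla, nearer match: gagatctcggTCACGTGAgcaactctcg
Gla, farther match: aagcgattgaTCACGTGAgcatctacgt
Ctsd: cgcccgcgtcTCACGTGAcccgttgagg
Mcoln1: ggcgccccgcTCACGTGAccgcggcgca

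The windows of Gla lay at chrX:134601183-134601210 and chrX:134601216-134601243 on the reverse strand, with the match 195 and 228 bases before the start. That of Ctsd was at chr7:142387909-142387936 on the reverse strand, 99 bases before the start, and that of Mcoln1 at chr8:3500463-3500490 on the forward strand, 46 bases before it. Cln3 and Ctsa were the other 2 members with TCACGTGA, and both matches of Ctsa lay nearer to the start than those of Gla. Of the 8 members lower in pKO mice with an entry, Gla held it, and Gla and Sgsh held CACGTG. A match is a stretch of letters and no measure of binding in these mice. Of the 5 members with TCACGTGA, Gla passed the test of genotype and Ctsd, Mcoln1, Ctsa and Cln3 did not.

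Levels of the members spanned from 62.3 normalized tags for Idua to 69264 for Ctsd in WT means. In WT mice 21 members had a mean of at least 1000, and Ctsd, Ctsb, Psap and Ctsl had the highest means, the lowest of these being 21747 for Ctsl. Ctsd, Ctsb and Psap alone took 0.973% to 1.20% of all tags in WT mice and 0.782% to 1.07% in pKO mice. All 47 together took 1.62% to 2.03% of tags in WT mice and 1.35%, 1.67%, 1.44%, 1.51% and 1.56% in pKO replicates 1 to 5. The pKO mice thus lay under the WT range except for replicate 2, which lay just inside it.

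The pKO mice differed among themselves in the lysosomal genes. The median log2 deviation of the 47 members from the WT mean was -0.34, -0.14, -0.13, -0.09 and -0.05 in pKO replicates 1 to 5. For the 10 members that passed the test it was -0.83, -0.26, -0.73, -0.72 and -0.48, so pKO replicate 2 was the one nearest to WT mice in the genes that differed. It lay in the WT range for 5 of the 10, against 1, 1, 3 and 2 for replicates 1, 3, 4 and 5. Without it 13 members were lower and 0 higher, while calls over all genes also became more frequent, at 8.50% lower and 6.44% higher. Of the 13, 8 were among the 10, Ctsd, Ctsf, Ctsk, Neu1 and Psap were added, and Ctsz and Sgsh were lost. The median SD of log2 values was 0.19 in WT and 0.33 in pKO mice over the members, and 0.23 and 0.34 over all genes tested. The SD was higher in pKO mice for 78.7% of members and 72.6% of genes, so a wider spread in pKO mice was seen in most genes and not in lysosomal genes alone.

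**Figure D3:**
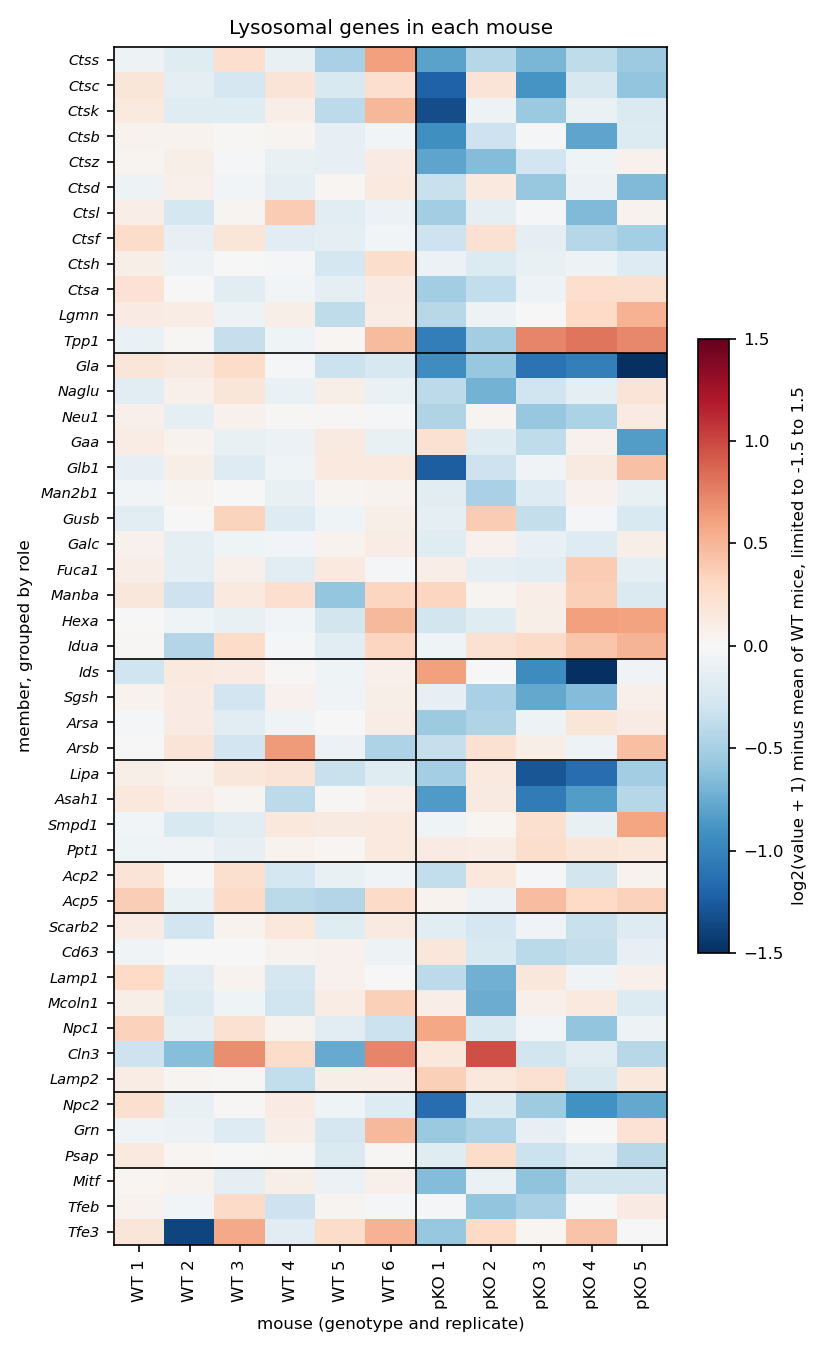
Each of the 47 members (y axis, grouped by role with horizontal lines) in each of 11 mice (x axis), as log2(value + 1) minus the mean of WT mice, in blue below and red above that mean and limited to -1.5 to 1.5. The 10 genes that passed the test are mostly blue in pKO replicates 1, 3, 4 and 5 and paler in replicate 2, while Tpp1 is blue in 2 pKO mice and red in 3.

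Macrophage genes were also lower in part. Of the 17 tested, Gpnmb, Itgam, Trem2, Itgax and Cd14 were lower in pKO mice (29.4%, against 5.77% of all genes tested). A negative log2 fold change was seen in 13, and the median of the 17 was -0.24, against -0.18 for the 47 members. Tyrobp at 0.73, Cd9 at 0.27, Cd163 at 0.23 and Fcer1g at 0.08 went the other way, and none of these passed the test. Gpnmb, a lysosomal glycoprotein of lipid-laden macrophages, had 3674 ± 742 for WT (SD, n = 6) and 2060 ± 992 for pKO (SD, n = 5). Gpnmb had a log2 fold change of -0.94 (adjusted p = 0.37, limma). Trem2, a lipid-sensing receptor of the same cells, was at -0.91 and Itgam, the integrin CD11b, at -0.72. The study also reports quantitative PCR, in which Itgam and Itgax were lower in eWAT of pKO mice. The PCR cohort included these mice, so the direction here is not independent evidence. For Emr1, Cd68 and Cd163 the study reports no difference between genotypes. Emr1, which encodes the macrophage marker F4/80, had 856 ± 151 and 865 ± 271, a log2 fold change of -0.01, and no gene of the list was at 0 in every mouse. The WT mice with the lowest and highest summed macrophage genes, replicates 5 and 6, were also those with the lowest and highest share of tags in lysosomal genes, and pKO replicate 1 was the lowest pKO mouse in both. The highest pKO mouse differed, being replicate 5 for the macrophage sum and replicate 2 for the lysosomal share. The macrophage sum itself includes genes of lysosomal proteins, among them Gpnmb, Laptm5 and Cd68, with WT means of 3674, 1977 and 33.2 normalized tags. It also includes Cd9, which is not restricted to macrophages. The 2 measures are thus not fully separate. The part of macrophage number or state in the lower lysosomal genes was not tested.

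**Figure D4:**
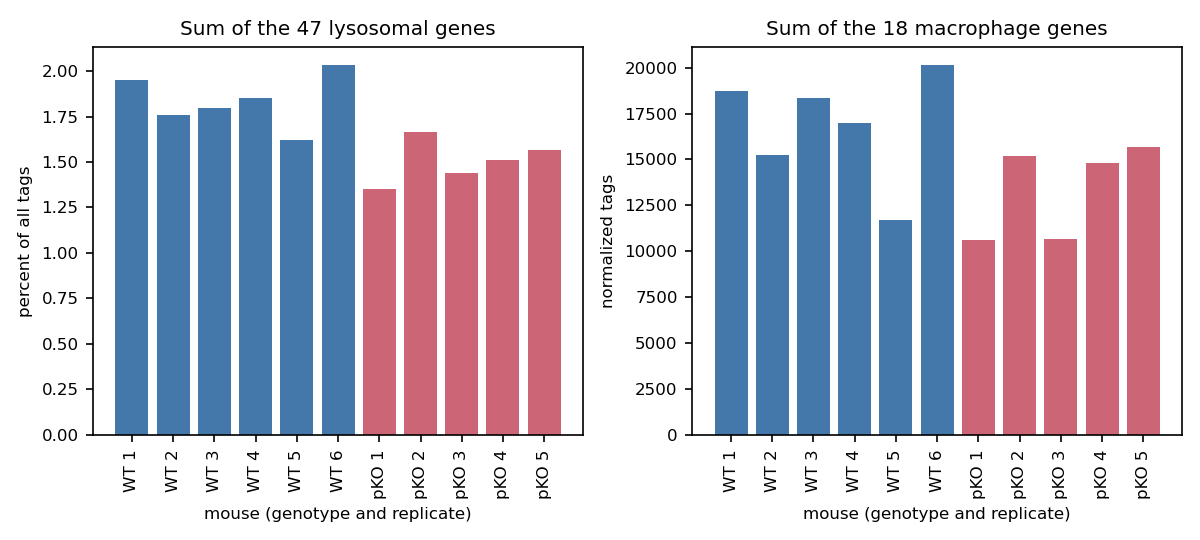
Left, share of all tags (percent, y axis) taken by the 47 lysosomal genes in each of 11 mice (x axis, WT in blue and pKO in red). Right, summed normalized tags of the 18 macrophage genes in the same mice, from 10584 in pKO replicate 1 to 20123 in WT replicate 6.

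The rest of the lysosomal pathway was examined through 83 further genes, of which 79 were in the tables and 72 reached 50 tags. Of these, 7 (9.72%) were lower and 1 was higher in pKO mice, against 5.77% and 4.85% of all genes tested, and their median log2 fold change was -0.08. Atp6v0d2, a subunit of the proton pump that acidifies lysosomes, had the largest difference, with 290 ± 64.4 for WT (SD, n = 6) and 108 ± 49.0 for pKO (SD, n = 5). The log2 fold change was -1.54 (adjusted p = 0.161, limma). Atp6v0a1, the other of 15 pump genes that was lower, was at -0.80 (adjusted p = 0.2, limma). Both are among the genes the study chose on these mice, so their values here add no independent evidence. For Atp6v0d2 the study also reports quantitative PCR. It was lower in pKO mice in the sequenced RNA, in eWAT of the whole cohort from which these mice came, and in inguinal fat.

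Of 16 further enzymes and their cofactors, 3 were lower (18.75%, against 5.77% of all genes tested). These were Dnase2a, the acid nuclease, at -0.82, Cln6, an endoplasmic reticulum protein needed for enzyme transfer, at -0.56, and Hgsnat, which acetylates heparan sulfate, at -0.30. None of 12 other membrane proteins and none of 4 genes for mannose 6-phosphate sorting, the route by which hydrolases reach the lysosome, passed in limma. M6pr was at 0.10 and Igf2r at -0.11, and in the same group Sort1 was at 0.20. Among the 11 genes by which mTORC1 senses nutrients at the lysosome, Flcn, folliculin, was the only one higher in pKO mice, with 166 ± 33.4 for WT (SD, n = 6) and 246 ± 26.5 for pKO (SD, n = 5). Flcn had a log2 fold change of 0.58 (adjusted p = 0.302, limma). Mtor itself was lower, at -0.41 (adjusted p = 0.519, limma). Of 14 autophagy genes, Uvrag, which acts in vesicle fusion with the lysosome, was lower at -0.54. Its genotypes did not overlap, as was so with pKO lower for 0.717% of all genes tested.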

How the data were processed

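SAGE libraries of eWAT RNA from 6 WT and 5 pKO mice were compared, each library from a separate mouse per the study's methods. Tag mapping by the authors used their own adaptation of the SOLiD SAGE program. The submitters' processing notes name build mm10 and edgeR version 3.2.3, and the annotation is not given in the sources used here. The deposited values are a signal per gene, each tag count over a scaling factor for its library: in each library 100% of values were whole multiples of 1 step (0.836 to 1.19) within a tolerance of 0.02 tags, so tag counts were recovered from the deposited signal. Totals were 9659740 to 14825727 tags, and no pair of libraries agreed within counting noise (chi-square per degree of freedom at least 17.7).

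The 6 WT and 5 pKO mice were compared on log2(value + 1) of the deposited signal in limma 3.58.1 (R 4.3.3, empirical Bayes with a mean-variance trend) over all 15453 genes, with Benjamini-Hochberg adjustment over all of them. Genes that averaged 50 or more in one genotype were called at an unadjusted p of at most 0.05 or an adjusted p of at most 0.1. On recovered counts, edgeR 4.0.16 called 4 genes lower and 1 higher at the adjusted threshold, and DESeq2 1.42.0 called 63 and 58. Scripts were tested on simulated data. Other alternatives were total-count and TMM scaling, pseudocounts of 0.5 and 10, other filters and variance models, the replicate number as a block, and leaving out each mouse.

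Members, roles, other gene lists and motifs were chosen with earlier results of these data known. Per-mouse values are given for members with an unadjusted p of at most 0.05, the 3 with the highest mean, Lamp1, Lamp2 and the 3 transcription factors, and up to 3 genes of each other list by smallest p. Values of Ids and Tpp1 by mouse, and of other genes outside this rule, were added after they were seen. Tags were taken with Python 3.11.15 from the GENCODE M21 transcript of each member (principal, then longest), and promoters from RefSeq. No promoter entry was used for Asah1, Ctsb, Ctsh and Npc1.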

Additional observations from a re-analysis of the deposited data

Results flagged for a closer look

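Dixon's test at its 95% critical value was run on each of the 47 members in each genotype, 94 groups in all, where chance gives about 4.7, or 1 in 20. It marked 3 values, all in WT mice and none in pKO mice. Asah1 was at 787 normalized tags in WT replicate 4, against 1044 to 1156 in the other WT mice. Lamp2 in the same mouse was at 3542, against 4621 to 4918 in the others. Hexa was at 1453 in WT replicate 6, against 855 to 1036 in the other WT mice.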

How the results depend on the processing

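The number of members lower in pKO mice was 10 and lay between 7 and 13 over 23 alternatives, with 0 higher in each of them, and the median log2 fold change of the members stayed between -0.22 and -0.16. Gla, Npc2, Ctss, Asah1, Lipa, Mitf and Ctsb had p of at most 0.05 in all 23, Ctsc in 18, Sgsh in 15 and Ctsz in 12. Members that were lower only when 1 mouse was left out or with total-count scaling were Cd63 (without pKO replicate 1), Ctsd, Ctsf, Ctsk, Neu1 and Psap (pKO replicate 2), Ctsk (pKO replicate 4 or WT replicate 5), Naglu and Neu1 (pKO replicate 5) and Ctsd (total-count scaling). No member was past the adjusted threshold in limma, against 2 in DESeq2 (Gla and Npc2), 1 when the fit was restricted to genes averaging 10 or more (Gla), and 0 to 4 when single mice were left out, with 1 (Gla) without WT replicate 5 and 4 (Asah1, Gla, Lipa and Npc2) without pKO replicate 2. Over all genes, the 4 lower and 1 higher past the adjusted threshold became 63 and 58 in DESeq2, 8 and 1 in that restricted fit, 65 and 26 without pKO replicate 2, 8 and 4 without WT replicate 5, and 1 and 0 with the replicate block. Total-count scaling gave 732 lower and 328 higher genes at an unadjusted p of at most 0.05, against 572 and 480, so the lower share of calls went from 54.4% to 69.1%, whereas edgeR gave 480 and 515 (48.2%) and DESeq2 521 and 607 (46.2%). It moved the median log2 fold change of all genes to -0.04 from 0.00 and gave 11 members lower. Mice with the same replicate number did not deviate together (5 pairs, correlations -0.09 to 0.14, mean -0.02, against 0.00 for other numbers). The numbers are not stated to pair mice, and 5 correlations cannot exclude a pairing. With the replicate block, which leaves out WT replicate 6, 7 members were lower and 0 higher, Ctsc, Ctsz and Sgsh no longer passed, and Arsb was at -0.021. The sign of small differences also turned with total-count scaling for the log2 fold change of Fuca1 (-0.027), and for the log2 fold change of Tfe3 in edgeR (-0.056) and DESeq2 (-0.052). When single mice were left out, the log2 fold change ran from -0.37 to 0.052 for Glb1, -0.20 to 0.026 for Mcoln1, -0.18 to 0.012 for Ctsa, -0.028 to 0.43 for Tpp1, -0.047 to 0.19 for Lgmn, -0.024 to 0.20 for Arsb, -0.23 to 0.062 for Npc1, -0.17 to 0.20 for Cln3, -0.24 to 0.19 for Tfe3 and -0.084 to 0.048 for Fuca1, all of which changed sign, and from -1.10 to -0.09 for Ids, which did not. The cause of these changes was not tested. With 6 and 5 mice, a difference that does not pass is not shown to be absent.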

Other observations

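Some markers of other cells of the fat pad were higher in pKO mice, none of them past the adjusted threshold. Of 6 mesothelial genes tested, 3 were higher in pKO mice at an unadjusted p of at most 0.05 and 0 were lower. By the same rule 4.85% of all genes tested were higher and 5.77% lower. The marker lists were chosen with earlier results of these data known. Krt19, a keratin of the mesothelium, had 374 ± 81.3 normalized tags for WT (SD, n = 6) and 610 ± 77.6 for pKO (SD, n = 5), with no overlap between genotypes (log2 fold change 0.73, adjusted p = 0.253, limma). Such a lack of overlap with pKO higher was seen in 0.717% of all genes tested. Upk1b was at 0.69 and Msln at 0.57. Of 11 adipocyte genes, Pnpla2, adipose triglyceride lipase, was higher, at 15211 ± 2173 for WT and 22446 ± 5023 for pKO (log2 fold change 0.55, adjusted p = 0.37, limma). Lep at -0.49 and Lipe at -0.22 were the 2 adipocyte genes with a negative log2 fold change, and neither passed. Of 5 fibroblast genes, Dcn was higher at the same unadjusted threshold, at 0.37, while Lum was at -0.14, Col1a1 at -0.03, Pdgfra at 0.00 and Col3a1 at 0.09, none of which passed. Of 4 endothelial genes, Kdr was higher, at 0.44, while Pecam1 was at -0.39, Cdh5 at 0.38 and Tie1 at 0.02, none of which passed. Of 7 lymphocyte genes, Cd79a alone reached 50 tags and was at 0.09. Neither of the 2 neutrophil genes in the tables reached 50 tags.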
